A study of Mus musculus with 12 samples.

Results

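The matrix proteases and their inhibitors were taken as all genes of the table named Mmp, Timp, Adam, Adamts or Adamtsl followed by a number that had at least 10 estimated counts in at least 1 of 12 mouse heart libraries. Of 84 such names, 54 met the threshold, out of 54178 gene entries in all: 14 of 23 Mmp genes, all 4 Timp genes, 15 of 33 Adam genes, 16 of 19 Adamts genes and all 5 Adamtsl genes. Among the 30 names below the threshold, 15 had no count in any library. Just inside it lay Adam32 (at most 12 counts), Adam5 (13), Adam1b (16) and Mmp27 (20), and just outside it Adam4 (9), Mmp8 (7), Mmp25 (7), Adam21 (6) and Adamts18 (6). A filter on low counts left 51 members to test and removed Adam32, Adam5 and Mmp27.

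RNA came from whole hearts of mice in 4 groups of 3 libraries. Flox mice carried the floxed Cited4 allele on both chromosomes and no cre named in the labels. Cardiomyocyte Cited4 knockout (KO) mice carried the same alleles and cre under the aMHC promoter, which is active in heart muscle cells, so the deletion is directed at those cells and not at fibroblasts, vessel cells or immune cells. Each genotype was labelled sedentary or exercise, the latter meaning 8 weeks of voluntary wheel running. Mice with cre and unfloxed Cited4 are not among the samples, so the transgene and the loss of Cited4 cannot be told apart. Strain, age and sex are not given in the labels. The series title names exercise-induced growth of the heart and formation of heart muscle cells as the interest of the study. The bracketed title codes carry an E with the sedentary word and an S with the exercise word, so sedentary and exercise here always mean the treatment word of the label, which the data cannot check. If the codes were right, each exercise direction and the interaction would turn, and the genotype comparisons would exchange names. The labels do not say that libraries of a group came from separate mice, so the spread behind each p-value is that between libraries and may be technical.

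Totals ran from 17465401 to 20467260 counts per library. Cited4 itself, the deleted gene, had 192 to 431 counts in the 6 Flox libraries and 0 to 5 in the 6 KO libraries. Heart muscle markers, 20 genes, summed to 74657 to 107801 CPM (counts scaled to a common library size), so markers of the labelled tissue were present. Atrial markers, 20 genes with 19 tested, ranged from 1153 to 6345 CPM in sedentary Flox, 1151 to 6881 in exercise Flox, 3031 to 26907 in sedentary KO and 1402 to 5268 in exercise KO, so libraries 2 and 3 of sedentary KO stood apart. Fibroblast markers, 18 of 18 tested, summed to 2554 to 2744 CPM in sedentary Flox, 2779 to 3888 in exercise Flox, 3204 to 4514 in sedentary KO and 2831 to 4127 in exercise KO. In such bulk RNA, more cells of a type and more RNA per cell cannot be told apart.

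These proteins remodel the matrix around cells. Matrix metalloproteinases (MMPs) are zinc enzymes, most of them secreted as inactive precursors, that cut collagens, proteoglycans and other matrix proteins. Tissue inhibitors of metalloproteinases (TIMPs) bind and block their active sites. ADAMs are membrane proteins, many of which release growth factors, cytokines and receptors from the cell surface, while ADAMTS enzymes are secreted and cut proteoglycans or the ends of procollagens. ADAMTS-like proteins share the accessory domains of the ADAMTS family, lack the protease domain and bind matrix fibrils. In the heart, fibroblasts, vessel cells, muscle cells and immune cells all contribute members.

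The 250 bases before the transcription start of 4 members are shown because the results below turn on them. Timp1 and Timp4 are inhibitors of the same family whose levels ran in different directions across the libraries, and Mmp3 and Adam19 are proteases that were highest in the libraries where Timp1 was highest. Promoters were read 5′ to 3′ from a RefSeq table on GRCm38.p6, which held 34 of the 54 members. Capitals mark matches to 3 motifs: the AP-1 site TGACTCA and the GC box GGGCGG on either strand, and the TATA box TATAAA on the gene's strand.
Timp1, chrX:20869916-20870165, plus strand: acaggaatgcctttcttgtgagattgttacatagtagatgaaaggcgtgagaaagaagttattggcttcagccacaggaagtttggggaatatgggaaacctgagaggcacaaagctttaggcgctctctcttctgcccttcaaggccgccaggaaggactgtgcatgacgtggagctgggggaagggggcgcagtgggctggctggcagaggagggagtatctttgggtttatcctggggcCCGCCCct
Timp4, chr6:115252206-115252455, minus strand: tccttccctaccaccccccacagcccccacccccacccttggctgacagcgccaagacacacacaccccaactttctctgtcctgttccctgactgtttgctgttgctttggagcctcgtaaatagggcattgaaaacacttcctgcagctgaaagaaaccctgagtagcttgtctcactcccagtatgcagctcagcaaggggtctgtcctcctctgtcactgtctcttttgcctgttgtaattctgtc
Mmp3, chr9:7445572-7445821, plus strand: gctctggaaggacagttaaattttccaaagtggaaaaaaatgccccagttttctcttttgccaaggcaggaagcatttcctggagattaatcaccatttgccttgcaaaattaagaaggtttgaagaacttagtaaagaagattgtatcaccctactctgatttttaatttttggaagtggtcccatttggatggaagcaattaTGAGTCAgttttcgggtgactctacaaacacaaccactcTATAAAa
Adam19, chr11:46055734-46055983, plus strand, of 3 RefSeq starts the one with the AP-1 match: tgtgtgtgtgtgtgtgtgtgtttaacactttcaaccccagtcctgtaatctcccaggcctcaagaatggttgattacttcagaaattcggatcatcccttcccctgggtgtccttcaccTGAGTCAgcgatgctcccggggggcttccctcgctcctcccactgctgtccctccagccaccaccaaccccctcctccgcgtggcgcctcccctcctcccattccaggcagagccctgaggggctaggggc
The Mmp3 match to AP-1 began 46 bases and its TATA box 7 bases before the start, and the Adam19 match to AP-1 began 131 bases before it. The Timp1 window held a GC box 8 bases before the start, and the variant AP-1 letters TGAGTAA at base 27 after it. Timp4 had none of these letters in the 250 bases. Over windows of 250 bases before to 50 after the start, AP-1 letters stood in 5 of the 34 members (Adam19, Adam1b, Mmp12, Mmp13 and Mmp3) and in 5.2% of 32851 promoters, and the GC box in 23 members and 35.7% of promoters. TATA box letters stood in 5 members and in 8.32% of promoters, and the variant AP-1 letters in 1 member and 2.68%. A member counted when any of its RefSeq starts matched, while the percentages are over single promoters. The member counts and the percentages are thus not like measures. A match is a description of letters and not a site of binding.

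Per length of exon, the inhibitors Timp2 and Timp3 led the set. Mean levels over the 12 libraries were 32.2 CPM per kb for Timp2 and 30.2 for Timp3, followed by 19.7 for Adamtsl5, an ADAMTS-like protein that binds fibrillin, 18.9 for Mmp15, a membrane-type MMP, and 18.7 for Mmp2, a gelatinase. The surface sheddase Adam10 stood at 9.47 CPM per kb, above the inhibitors Timp1 at 7.44 and Timp4 at 4.41. Lengths are exon unions of GENCODE vM21, which need not be the annotation the authors counted with, and Timp3 and Timp4 lie inside the synapsin genes Syn3 and Syn2 with antisense exon overlap, so reads of the overlapping genes may be mixed. Timp1 lies inside Syn1 with no exon overlap. Summed over each family per kb, MMPs stood at 0.698 ± 0.108 of the TIMP sum in sedentary Flox (mean ± SD, n = 3), 0.884 ± 0.0517 in exercise Flox, 0.695 ± 0.159 in sedentary KO and 0.740 ± 0.0116 in exercise KO.

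Of all counts, the 54 members took 0.113% to 0.169%. Within sedentary Flox the share was 0.121%, 0.127% and 0.119%, and in exercise Flox 0.115%, 0.133% and 0.115%. In sedentary KO it was 0.140%, 0.165% and 0.169%, and in exercise KO 0.128%, 0.113% and 0.141%. All 3 KO libraries of sedentary mice lay above all 3 Flox libraries of the same label. These shares use unscaled totals, unlike the CPM elsewhere. The scaling factors behind the CPM were 0.971, 0.954 and 0.969 in sedentary Flox and 1.046, 1.124 and 1.098 in sedentary KO. The gap is therefore narrower in CPM. By mean CPM the largest members were Timp3 (246) and Timp2 (126), which weigh most in the share.

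No member passed an adjusted p of 0.05 in any of 7 comparisons (edgeR quasi-likelihood test, Benjamini-Hochberg over 15226 genes). DESeq2 passed 6 members for KO over Flox in sedentary mice, among 394 genes in all, 2 for that average over treatments, among 172 genes, and 0 elsewhere. limma-voom passed 0 members in each. Few genes passed at all with edgeR: 0.125% of all genes for KO over Flox in sedentary mice, 0.00657% among exercise mice, 0% for exercise over sedentary Flox and 0.0197% for exercise over sedentary KO, 0% for the interaction, 0.0525% for KO over Flox averaged over treatments and 0.0263% for exercise over sedentary averaged over genotypes. By the unadjusted p under 0.05 the members called were, in the same order, 15, 2, 12, 8, 8, 8 and 10 of 51, with 13.5%, 7.94%, 7.41%, 10.6%, 9.88%, 11.6% and 8.45% of all genes called so. Differences below are therefore given as levels and log2 fold changes ± SE, and none of those for members passed the adjusted threshold with edgeR on all 12 libraries.

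Timp1, an inhibitor made by many cell types under stress and inflammation, was lowest in sedentary Flox, at 2.60, 1.73 and 1.77 CPM. It stood at 4.45, 17.4 and 5.54 CPM in exercise Flox, at 5.16, 5.01 and 5.34 in sedentary KO and at 4.59, 3.61 and 22.1 in exercise KO. Each of the other 9 libraries was above all 3 of sedentary Flox, and 2 libraries, number 2 of exercise Flox and number 3 of exercise KO, stood far above the rest. The log2 fold change was 2.17 ± 0.78 for exercise over sedentary Flox (adjusted p = 0.583, edgeR) and 1.35 ± 0.78 for KO over Flox in sedentary mice (adjusted p = 0.484, edgeR). These 2 libraries were then left out, a choice made after seeing the data and from the Timp1 values themselves. The latter was then 1.34 ± 0.21 with an adjusted p of 0.0234 (edgeR). The Flox exercise difference was 1.29 ± 0.23 (adjusted p = 0.169, edgeR). Neither library belongs to the comparison of sedentary mice, so its fold change hardly moved while its SE shrank with the spread shared by all groups. No support is drawn from that adjusted p. With all 12 libraries and the fibroblast marker mean as a covariate, sedentary KO differed from sedentary Flox by -0.62 ± 0.65.

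Timp4, the TIMP best known from heart muscle, had its highest mean in sedentary Flox, where Timp1 was lowest. It stood at 47.3, 41.8 and 24.2 CPM in sedentary Flox, 25.9, 13.4 and 28.4 in exercise Flox, 14.2, 25.6 and 22.1 in sedentary KO and 35.7, 24.7 and 8.69 in exercise KO. The lowest library was number 3 of exercise KO and the next lowest number 2 of exercise Flox, the same libraries in which Timp1 was highest. Per kb, Timp4 over Timp1 was 2.74, 3.63 and 2.07 in sedentary Flox and 0.877, 0.116 and 0.773 in exercise Flox. It was 0.414, 0.770 and 0.622 in sedentary KO and 1.17, 1.03 and 0.0593 in exercise KO. Timp4 exceeded Timp1 more than 2-fold per kb in the Flox libraries of sedentary mice and in no other library.

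Timp2, which inhibits MMPs and with Mmp14 also takes part in activating Mmp2, was highest in sedentary KO. Its levels were 97.4, 106 and 111 CPM in sedentary Flox, 95.6, 114 and 122 in exercise Flox, 140, 163 and 183 in sedentary KO and 119, 100 and 158 in exercise KO. The KO and Flox libraries of sedentary mice did not overlap, at a log2 fold change of 0.63 ± 0.16 (adjusted p = 0.140, edgeR). With the fibroblast marker mean as a covariate the value was 0.06. Timp3, an inhibitor held in the matrix that also blocks Adam17 and several ADAMTS enzymes, stood at 219, 359 and 247 CPM in sedentary Flox, 165, 151 and 207 in exercise Flox, 215, 330 and 375 in sedentary KO and 239, 235 and 210 in exercise KO. The 2 Flox groups did not overlap, with a log2 fold change of -0.66 ± 0.22 for exercise over sedentary (adjusted p = 0.561, edgeR), and -0.42 ± 0.21 without library 2 of sedentary Flox. Of the TIMP sum per kb, Timp3 took 26.6% and 27.8% in the 2 libraries with the highest Timp1, against 37.4% to 55.0% in the others. Timp1 is part of that sum, so a low share in libraries picked for high Timp1 is partly built in. Timp3 itself stood at 151 CPM in the one of exercise Flox and at 210 in the one of exercise KO. The latter lay above libraries 1 and 3 of exercise Flox (165 and 207).

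**Figure D1:**
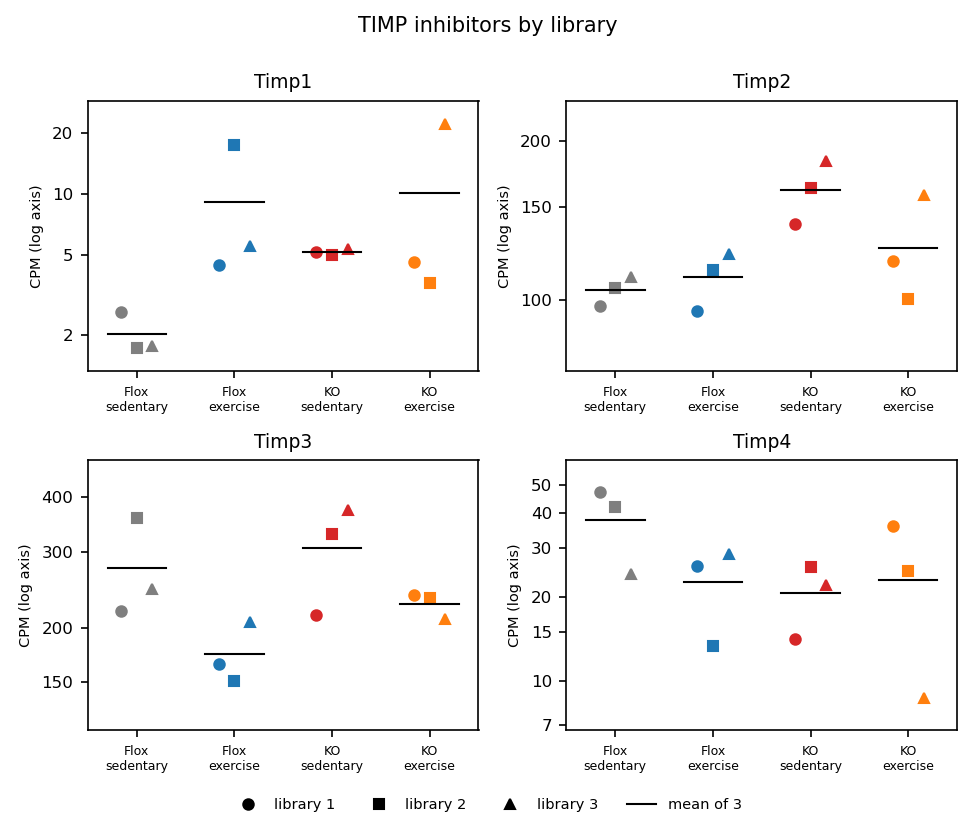
Levels of the 4 TIMP genes in CPM on log axes for each library (circle, square and triangle for libraries 1, 2 and 3) in the 4 groups, with a line at the mean of 3. Timp1 peaks at 17.4 and 22.1 CPM in the 2 libraries where Timp4 is lowest, at 13.4 and 8.69 CPM.

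The members leaned upward in KO over Flox in sedentary mice. Unadjusted p was under 0.05 for 14 members higher in KO and 1 lower, against 8.1% and 5.41% of all genes tested. The KO and Flox libraries did not overlap for 18 members higher and 1 lower, against 10.4% and 7.93% of all genes. The log2 fold change was above 0 for 36 of 51 members, against 50% of all genes, with a median of 0.30, where the median of all genes was 0.00. Leaving out 1 library at a time gave 10 to 16 members higher and a median of 0.19 to 0.41. By role, those higher at the unadjusted p were 3 of 6 gelatinases, collagenases and stromelysins, 3 of 7 ADAMTS proteoglycanases, 1 of 4 TIMPs, 1 of 4 membrane-type MMPs, 1 of 3 other MMPs, 1 of 10 catalytic ADAMs, 1 of 3 non-catalytic ADAMs, 1 of 3 procollagen N-proteinases, 1 of 6 other ADAMTS enzymes and 1 of 5 ADAMTS-like proteins. With 1 gene in a role, nothing is read from its share.

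Adamts15 (chr9:30899155-30922452, minus strand), an enzyme that cuts the proteoglycan versican, had the smallest p. It stood at 7.68, 5.51 and 8.73 CPM in sedentary Flox and at 15.8, 16.3 and 22.9 in sedentary KO, with no overlap. The log2 fold change was 1.33 ± 0.27 (adjusted p = 0.0826, edgeR). In the exercise groups it stood at 11.98, 16.3 and 9.48 CPM in Flox and 17.7, 9.81 and 16.3 in KO, which overlapped. Its neighbour Adamts8 (chr9:30942562-30963838, plus strand), another proteoglycanase, starts 20109 bases away on the other strand. Adamts8 ranged from 0.388 to 2.89 CPM in the 6 Flox libraries, and reached 1.69, 5.51 and 24.5 CPM in sedentary KO and 1.75, 0.516 and 1.92 in exercise KO. Its log2 fold change among sedentary mice was 2.93 ± 1.06 (adjusted p = 0.278, edgeR), and 1.37 ± 0.87 without library 3 of sedentary KO. The 2 libraries with the highest Adamts8 were those with the highest atrial markers, 14876 and 26907 CPM. With the mean of the atrial markers as a covariate, the log2 fold change of Adamts8 was 0.51, and that of Adamts15 0.77.

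Adam33 (chr2:131050591-131063814), a membrane protease of mesenchymal cells, stood at 2.24, 1.37 and 2.07 CPM in sedentary Flox and at 2.80, 6.80 and 9.04 in sedentary KO. In exercise Flox it was 1.88, 3.42 and 2.94 CPM and in exercise KO 2.94, 2.43 and 2.35, so libraries 2 and 3 of sedentary KO were well above all others. That is a log2 fold change of 1.72 ± 0.38 (adjusted p = 0.0944, edgeR). Adamtsl2 (chr2:27079379-27108981), which binds fibrillin and a latent TGF-beta binding protein, stood at 9.27, 6.62 and 9.49 CPM in sedentary Flox and 12.7, 20.5 and 18.8 in sedentary KO. In the exercise groups it was 9.98, 9.20 and 11.6 CPM in Flox and 14.6, 9.76 and 7.47 in KO. The log2 fold change among sedentary mice was 1.03 ± 0.24 (adjusted p = 0.111, edgeR). Adam11, an ADAM without a working catalytic site that is best known from neurons, stood at 18.5, 15.7 and 14.5 CPM in sedentary Flox and 20.2, 27.7 and 29.1 in sedentary KO, at a log2 fold change of 0.66 ± 0.17 (adjusted p = 0.138, edgeR). With the fibroblast marker mean as a covariate, Adam33 stood at 0.94 ± 0.57, Adam11 at 0.39 ± 0.25, Adamts15 at 0.85 ± 0.37 and Adamtsl2 at 1.11 ± 0.41.

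Among the MMPs, Mmp2 and Mmp23 were higher by smaller steps with no overlap. Mmp2 stood at 45.1, 52.9 and 53.5 CPM in sedentary Flox and 70.5, 72.3 and 81.6 in sedentary KO. It differed by a log2 fold change of 0.57 ± 0.18 (adjusted p = 0.212, edgeR) and turned to -0.02 with the fibroblast marker mean as a covariate. Mmp23, a membrane-tethered MMP with an ion channel-binding domain, stood at 8.21, 7.98 and 8.08 CPM in sedentary Flox and 10.9, 10.4 and 13.6 in sedentary KO, at 0.52 ± 0.14 (adjusted p = 0.161, edgeR), and at 0.21 ± 0.20 with that covariate. Mmp12, the macrophage elastase, had few reads in sedentary Flox, at 0.708, 0.263 and 0.101 CPM, and stood at 1.01, 1.75 and 1.42 in sedentary KO, 0.456, 0.789 and 0.997 in exercise Flox and 0.876, 1.91 and 1.87 in exercise KO. As log2 fold changes these gave 1.98 ± 0.56 among sedentary mice (adjusted p = 0.167, edgeR) and 1.51 ± 0.38 averaged over treatments (adjusted p = 0.203, edgeR). Mmp12 shares antisense exon sequence with Mmp1b, which had 0 counts in all 12 libraries, and the strand setting is not known.

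Of the members outside the rule for named genes, Adamts7 was named after its values were seen, as the 1 member lower. This enzyme, which cuts the cartilage protein COMP, stood at 47.0, 45.9 and 35.5 CPM in sedentary Flox and 33.7, 24.1 and 26.8 in sedentary KO, a log2 fold change of -0.60 ± 0.21 (adjusted p = 0.253, edgeR), and -0.02 with the fibroblast covariate. It overlaps Tbc1d2b on the other strand. Fixed members with other roles showed little difference: the sheddases Adam10 and Adam17, which release growth factors and TNF, had log2 fold changes of 0.13 ± 0.10 and -0.09 ± 0.11 (adjusted p = 0.645 and 0.777, edgeR).

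**Figure D2:**
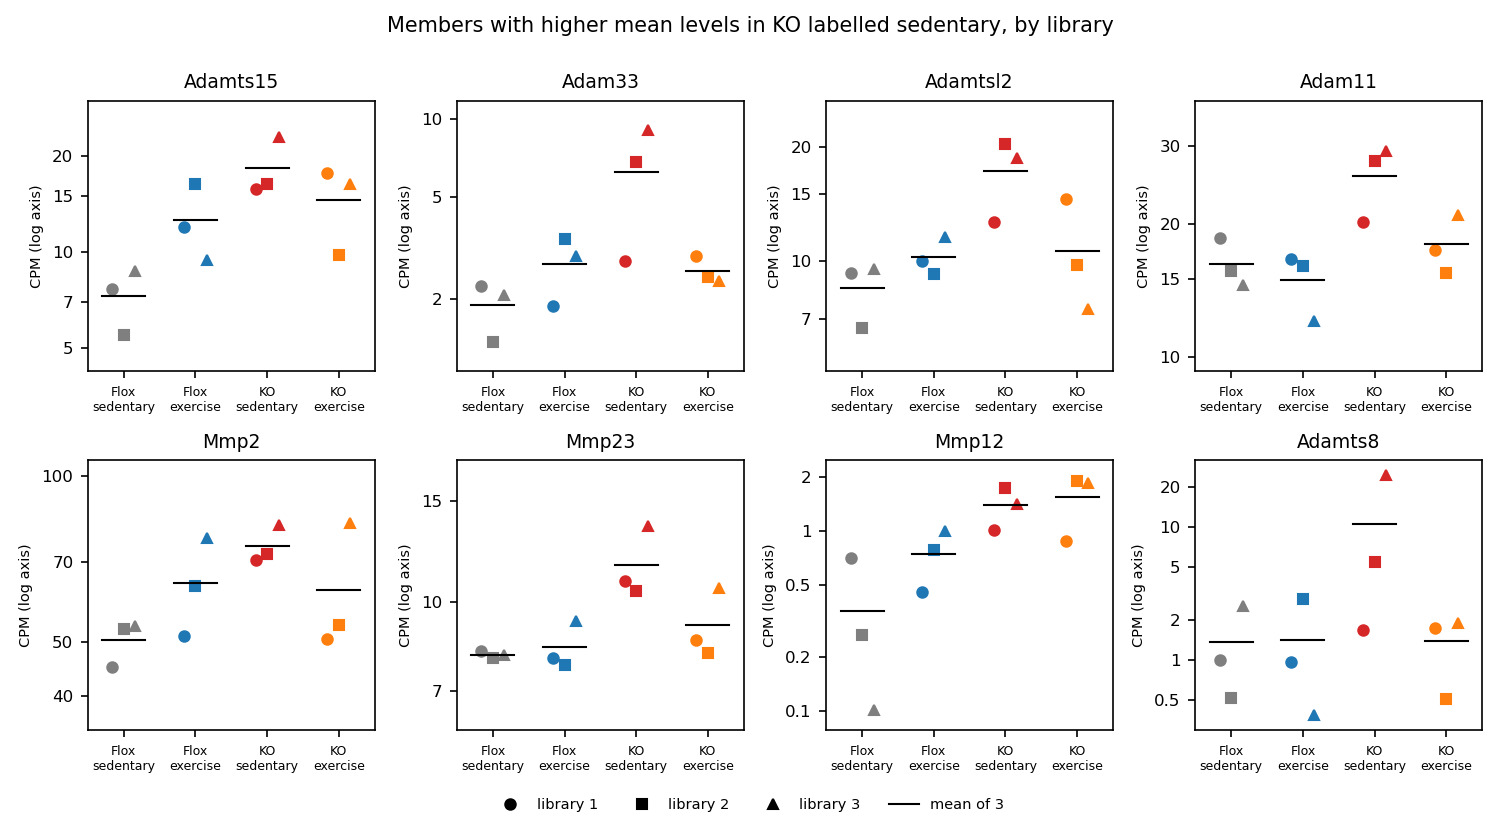
Levels in CPM on log axes of 8 members by library, with libraries 1, 2 and 3 as circle, square and triangle and a line at the mean of 3. Adamts15, Adam33, Adamtsl2, Adam11, Mmp23 and Adamts8 peak in sedentary KO, and library 3 of that group has 24.5 CPM of Adamts8 where the Flox libraries have at most 2.89.

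Several cell type marker lists moved with these values, though not every marker sum was free of overlap. For KO over Flox in sedentary mice, 13 of 18 fibroblast markers were higher without overlap and 1 lower, with a median log2 fold change of 0.65, and their sum was at least 3204 CPM in the KO libraries and at most 2744 in the Flox libraries. Adipocyte markers had the highest median of the lists given here, 4.28 over 15 genes, with 12 higher at the unadjusted p, 5 of them past the adjusted threshold, and 10 not overlapping, and their sum was 358 to 493 CPM in the KO libraries and 270 to 316 in the Flox libraries. Mesothelial markers had a median of 1.53 over 10 genes, with 0 not overlapping. Schwann and neuronal markers had a median of 0.33 over 12 genes, with 3 not overlapping. Their sum was 58.9 to 70.8 CPM in the KO libraries and 43.6 to 53.7 in the Flox libraries. Atrial markers had a median of 2.33 over 19 genes, with 3 not overlapping, macrophage markers one of 0.47 over 15 genes, with 4 not overlapping, and heart muscle markers one of -0.33 over 20 genes, 10 of them lower without overlap. Of all genes, 10.4% were higher and 7.93% lower without overlap. With the mean of the atrial markers as a covariate, the members' median was 0.12, with 7 members higher and 1 lower at the unadjusted p, and with the fibroblast marker mean it was -0.02, with 3 higher and 0 lower. The share of all genes at that p, in both directions, was 4.49% and 4.1% in these fits, against 13.5% without a covariate, so fewer genes in general were called. The part of these cell types in the members' levels was not tested.

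Among exercise mice KO and Flox differed little in this set. Unadjusted p was under 0.05 for 0 members higher and 2 lower, where 3.87% and 4.07% of all genes were, and the median log2 fold change was 0.03. Groups did not overlap for 1 member higher and 2 lower, against 7.61% and 7.23% of all genes. The 2 with the small p were Adam1a, an ADAM best known from the testis, and Adamts1, which cuts versican and aggrecan. Adam1a shares exon sequence with Tmem116 on the other strand and with Mapkapk5 and Gm42878 on its own, so its counts may be mixed. Adam1a stood at 12.7, 11.99 and 11.8 CPM in Flox and 8.76, 10.4 and 7.41 in KO, a log2 fold change of -0.46 ± 0.17 with no overlap (adjusted p = 0.601, edgeR). Adamts1 stood at 43.1, 33.0 and 32.1 CPM in Flox and 33.1, 25.8 and 26.6 in KO, which overlapped, a log2 fold change of -0.34 ± 0.14 (adjusted p = 0.601, edgeR), and -0.19 ± 0.13 without library 1 of exercise Flox.

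In Flox mice, members with unadjusted p under 0.05 for exercise over sedentary numbered 11 higher and 1 lower, against 3.86% and 3.56% of all genes. Of the 51, 12 were higher and 1 lower without overlap, against 7.5% and 6.57% of all genes, and the median log2 fold change was 0.15. Without library 2 of exercise Flox the count of higher members was 2, and without library 2 of sedentary Flox it was 4, where 6.12% and 4.16% of all genes were called in either direction against 7.41% with all libraries. This comparison shares its Flox libraries of sedentary mice with KO over Flox above, so members low in those libraries are high in both. Fibroblast markers had a median of 0.35 here, with 8 of 18 higher without overlap, and macrophage markers one of 0.63, with 14 of 15 above 0. With the fibroblast marker mean as a covariate, 1 member was higher and 2 lower, against 5.1% of all genes in either direction, and the members' median was -0.01. The part of these cells in the difference was not tested.

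Adam8, an ADAM of myeloid and activated cells, stood at 0.827, 0.420 and 0.909 CPM in sedentary Flox and 1.83, 5.99 and 1.33 in exercise Flox. In log2 terms the difference was 2.08 ± 0.63 (adjusted p = 0.523, edgeR) and 1.12 ± 0.54 without library 2 of exercise Flox. Mmp3, the stromelysin that cuts many matrix proteins and activates other MMPs, stood at 2.24, 1.52 and 3.28 CPM in sedentary Flox and 4.68, 9.67 and 7.81 in exercise Flox, at 1.65 ± 0.54 (adjusted p = 0.562, edgeR). In KO it was 5.98, 4.34 and 7.40 CPM among sedentary mice and 6.03, 2.99 and 14.6 among exercise mice. Mmp14, the membrane-type MMP that activates Mmp2, stood at 15.1, 10.6 and 16.2 CPM and at 20.1, 29.1 and 19.7 in the 2 Flox groups, at 0.72 ± 0.28 (adjusted p = 0.595, edgeR). Adamts4, an aggrecanase, stood at 0.886, 0.158 and 0.707 CPM against 2.68, 3.21 and 1.61, at 2.10 ± 0.81 (adjusted p = 0.595, edgeR), and is among the members that share exon sequence with another gene. Mmp9, the gelatinase of leukocytes, stood at 1.00, 0.683 and 1.21 CPM against 1.37, 2.68 and 1.61, at 0.96 ± 0.44 (adjusted p = 0.666, edgeR). Adamts1 stood at 26.6, 28.2 and 27.2 CPM against 43.1, 33.0 and 32.1, at 0.40 ± 0.14 (adjusted p = 0.562, edgeR), and at 0.25 ± 0.13 without library 1 of exercise Flox. For all 6 genes the 2 Flox groups did not overlap. With the fibroblast marker mean as a covariate, Adam8 stood at 1.06, Mmp3 at 0.66, Mmp14 at 0.29 and Mmp9 at 0.17, and without library 2 of exercise Flox Mmp9 stood at 0.61. Values of Adamts4 and Adamts1 with that covariate are not given here, so the fall is not read as one of all 6 genes.

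**Figure D3:**
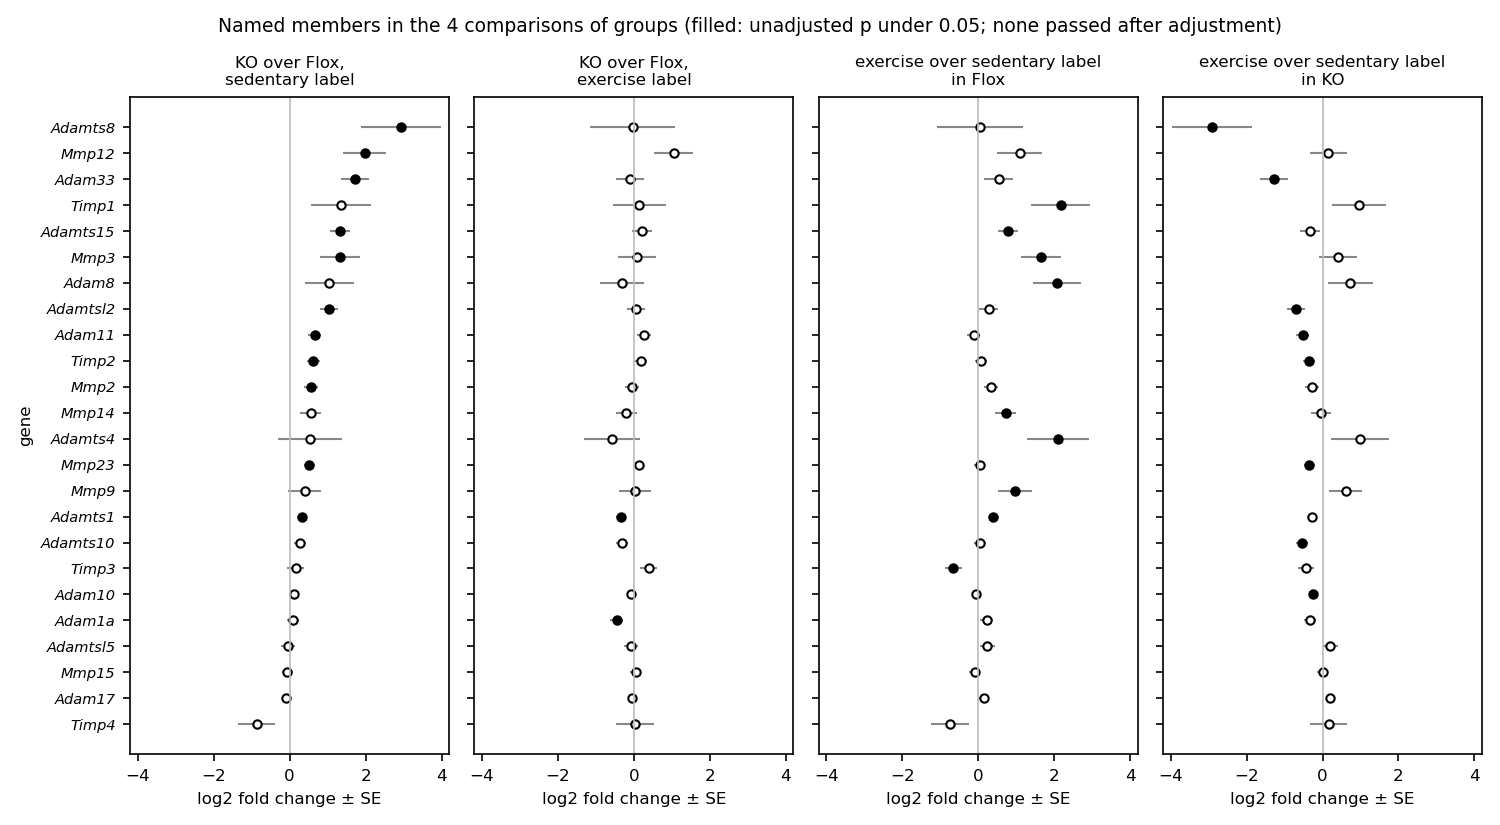
Log2 fold changes (points) with SE (bars) of the 24 members named by rule in the 4 comparisons between groups, ordered by KO over Flox in sedentary mice. Filled points have an unadjusted p under 0.05, and no point passed an adjusted p of 0.05. Most filled points lie above 0 for KO over Flox in sedentary mice and for exercise in Flox, and those for exercise in KO lie below 0.

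In KO mice, exercise over sedentary gave 0 members higher and 8 lower at an unadjusted p under 0.05, against 4.35% and 6.27% of all genes. The libraries did not overlap for 0 members higher and 3 lower, against 5.82% and 7.31% of all genes, and the median log2 fold change was -0.09. Adamts10, which binds fibrillin microfibrils, stood at 42.3, 59.8 and 68.6 CPM among sedentary mice and 38.0, 39.7 and 39.5 among exercise mice, a log2 fold change of -0.54 ± 0.16 (adjusted p = 0.321, edgeR). Adam10 stood at 48.7, 53.2 and 51.4 CPM against 43.5, 38.8 and 46.2, at -0.26 ± 0.10 (adjusted p = 0.429, edgeR). Both were lower without overlap, as was Mmp13, a collagenase named after its values were seen, at 0.965, 0.671 and 0.730 CPM against 0.515, 0.465 and 0.267. Adam33, Adamtsl2, Adam11, Mmp23 and Timp2, all high in sedentary KO, had values of -1.27 ± 0.37, -0.71 ± 0.24, -0.52 ± 0.17, -0.35 ± 0.14 and -0.36 ± 0.16 (adjusted p = 0.307, 0.367, 0.359, 0.427 and 0.453, edgeR), with overlapping groups. Timp2 stood at -0.23 without library 2 of exercise KO and at -0.55 without library 3, and Mmp23 at -0.22 without library 3 of sedentary KO. The 2 KO comparisons share the KO libraries of sedentary mice. Without library 2 of sedentary KO the count of lower members was 5, as it was without library 3, and 5.65% and 5.99% of all genes were called in either direction, against 10.6% with all libraries. Without library 1 it was 13 with 4 higher, where 21.2% of all genes were called, so the members' counts moved with those of all genes. Adipocyte markers had a median of -2.84 in this comparison, with 11 of 15 lower at the unadjusted p, 1 of them past the adjusted threshold, atrial markers one of -1.68 over 19 genes and fibroblast markers one of -0.24 over 18. With the atrial covariate 2 members were higher and 2 lower, against 6.31% of all genes, and the median was 0.01. With the fibroblast covariate 4 were higher and 2 lower, against 6.88% of all genes. The part of these cells was not tested.

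The interaction, the difference between labels in KO minus that in Flox, was below 0 for most members: 16 of 51 had a value above 0, against 47.9% of all genes, and the median was -0.35, where all genes had a median of -0.02. Unadjusted p was under 0.05 for 7 members below 0 and 1 above, against 5.52% and 4.37% of all genes. With 1 library left out the count below 0 was 5 to 15, the 15 without library 3 of exercise KO and 11 without library 1 of sedentary KO, where 13.1% and 18% of all genes were called in either direction against 9.88%. The smallest p belonged to Adamts1 at -0.67 ± 0.19 (adjusted p = 0.394, edgeR), whose CPM were 30.7, 38.9 and 33.4 in sedentary KO, above all 3 Flox libraries of that label, and 33.1, 25.8 and 26.6 in exercise KO. Adam33 (-1.81 ± 0.53), Adamts15 (-1.11 ± 0.37), Adamtsl2 (-0.98 ± 0.34), Adamts10 (-0.59 ± 0.23), Mmp2 (-0.61 ± 0.26) and Adam1a (-0.54 ± 0.23) were the other members below 0, with adjusted p of 0.395 to 0.491 (edgeR). Adamts7 was the 1 above, at 0.69 ± 0.30 (adjusted p = 0.500, edgeR). With the fibroblast marker mean as a covariate the members' median was 0.03, and Mmp2 and Adamts7 each stood at 0.03. Adam33 stood at -0.89 ± 0.74, Adamts15 at -0.60 ± 0.46 and Adamts10 at -0.25 ± 0.30 in that fit, so these kept their direction.

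Averaged over treatments, KO over Flox had 8 members higher and 0 lower at an unadjusted p under 0.05, against 5.98% and 5.64% of all genes, led by Adamts15 at 0.77 ± 0.19 (adjusted p = 0.201, edgeR), and 13 higher without library 2 of exercise Flox, where 14% of all genes were called in either direction against 11.6%. Averaged over genotypes, exercise over sedentary had 6 members higher and 4 lower, against 3.58% and 4.87% of all genes, and 1 higher without the 2 libraries in which Timp1 was highest. Timp3 had the smallest p there at -0.54 ± 0.15 (adjusted p = 0.473, edgeR), with Adam8 at 1.41 ± 0.43 and Timp1 at 1.57 ± 0.53 (adjusted p = 0.473 and 0.494, edgeR). Adam8 stood at 0.93 without library 2 of exercise Flox, Timp1 at 0.93 without library 3 of exercise KO, and they stood at 0.60 and 0.49 without both. In both averages the 6 and 6 libraries overlapped for every member, where 0.204% and 0.256% of all genes were higher or lower without overlap in the first and 0.131% and 0.243% in the second.

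Part of the set was high in the same 2 libraries. Number 2 of exercise Flox and number 3 of exercise KO were the 2 highest libraries for 10 of 51 members, where 3.28% of all genes showed this. The 10 were Timp1, the MMPs Mmp3, Mmp9, Mmp14 and Mmp19, and the ADAMs Adam8, Adam9, Adam12, Adam17 and Adam19, with no ADAMTS or ADAMTS-like gene among them. They were chosen for this pattern, which gets no test. Adamts4 and Adamts2 narrowly missed it. Adamts4 stood at 3.21 and 2.61 CPM in the 2 libraries, with 2.68 in library 1 of exercise Flox. Adamts2 stood at 36.1 and 39.4 CPM, with 36.8 in library 2 of sedentary KO. Adam19, a sheddase of neuregulins, stood at 64.3 and 70.1 CPM in the 2 libraries and at 14.7 to 43.3 in the other 10. Mmp19, an MMP of basement membranes, stood at 11.2 and 8.21 CPM and at 2.01 to 4.93 in the others. It shares exon sequence with Tmem198b and Gm47093 on the other strand, so its counts may be mixed. Adam17 differed least, at 41.2 and 40.5 CPM against 27.7 to 37.8.

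Macrophage markers were high in the same libraries. Their sum, 15 of 15 genes tested, was 668 and 573 CPM in the 2 libraries and 301 to 548 in the others, and 9 of the 15 had these as their 2 highest libraries. Neutrophil markers were low: 3 of 12 were tested, Ngp and Elane had no count in any library, and the sum was 5.84 and 6.56 CPM against 1.56 to 2.74. Mmp8, the neutrophil collagenase, lay below the count threshold with 7 counts in the first of the 2 libraries, 4 in the other and at most 2 in the rest. Fibroblast marker sums in the 2 libraries were 3888 and 4127 CPM, below those of libraries 2 and 3 of sedentary KO (4372 and 4514). Of the fibroblast markers, 4 of 18 had the 2 libraries as their highest, against 10 of 51 members and 3.28% of all genes. The same held for 6 of 24 tested substrates in the matrix, a list that shares genes with the fibroblast markers. It held for 4 of 22 other matrix-processing enzymes, 2 of 23 shed substrates, 0 of 15 activators and 0 of 9 other inhibitors. Atrial and mesothelial marker sums also differed within the 2 exercise groups. Atrial sums were 6881 CPM in number 2 of exercise Flox, against 1201 and 1151 in its group. They were 5151 in number 3 of exercise KO, against 5268 and 1402. Mesothelial sums were 34.4 CPM against 11.5 and 11.4, and 89.4 against 17.6 and 7.23. Of these markers, 0 of 19 and 0 of 10 had the 2 libraries as their highest. Whether immune or other cells contribute to the pattern was not tested.

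**Figure D4:**
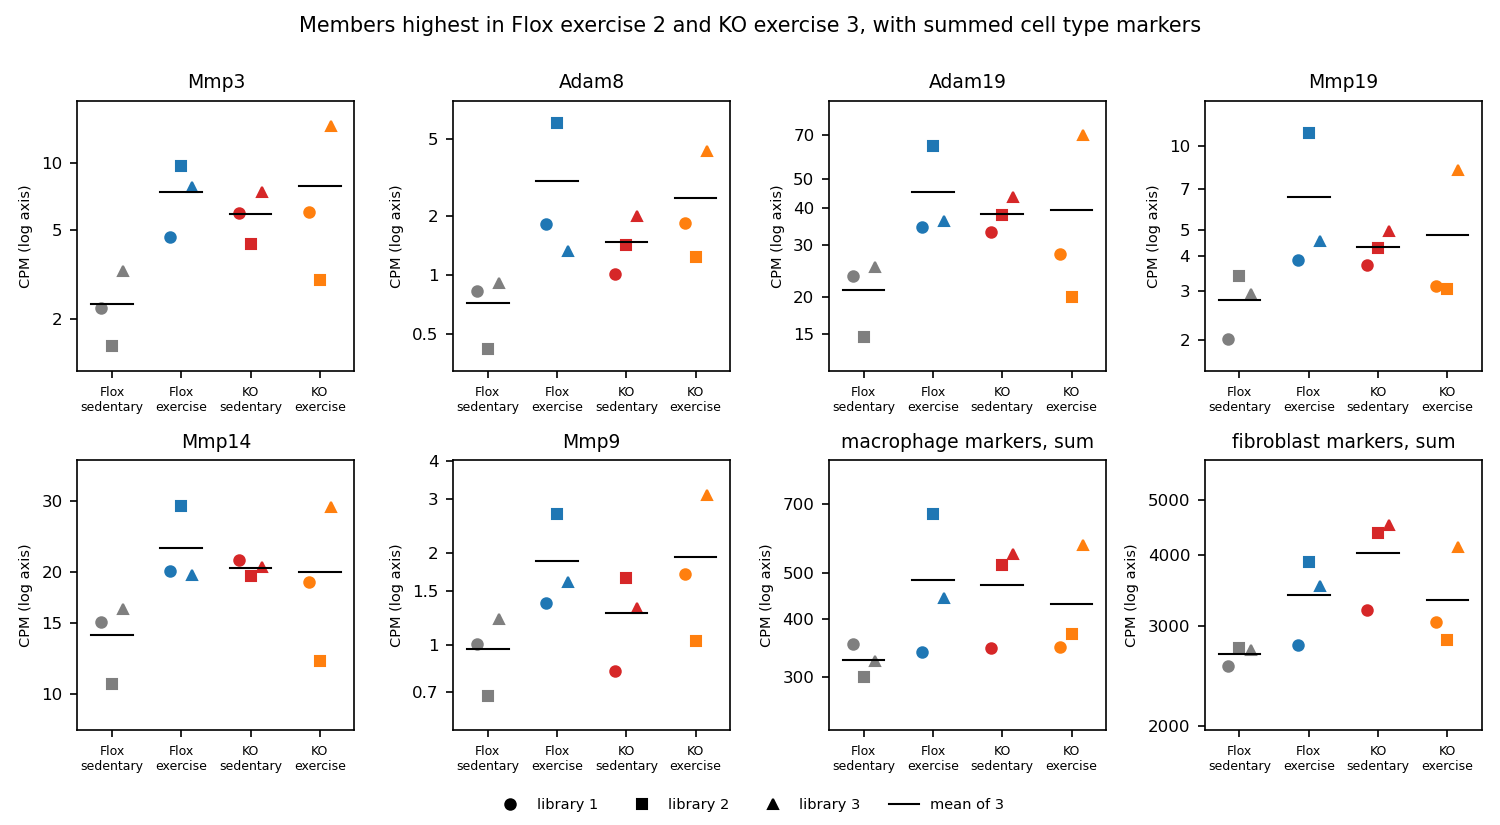
Levels in CPM on log axes of 6 of the 10 members and the summed macrophage and fibroblast markers by library, with libraries 1, 2 and 3 as circle, square and triangle and a line at the mean of 3. The square of exercise Flox and the triangle of exercise KO are the 2 highest points for each gene and for the macrophage marker sum (668 and 573 CPM). They are not the 2 highest for the fibroblast marker sum.

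The library with most highest values was number 3 of sedentary KO, with 15 of 51 members, where 15.3% of all genes peaked. Number 3 of exercise KO held 9 (9.65% of all genes) and number 2 of exercise Flox 7 (7.19%). Lowest values were most frequent in number 2 of sedentary Flox, with 13 members (8.66% of all genes), followed by number 2 of exercise KO with 8 (8.41%).

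**Figure D5:**
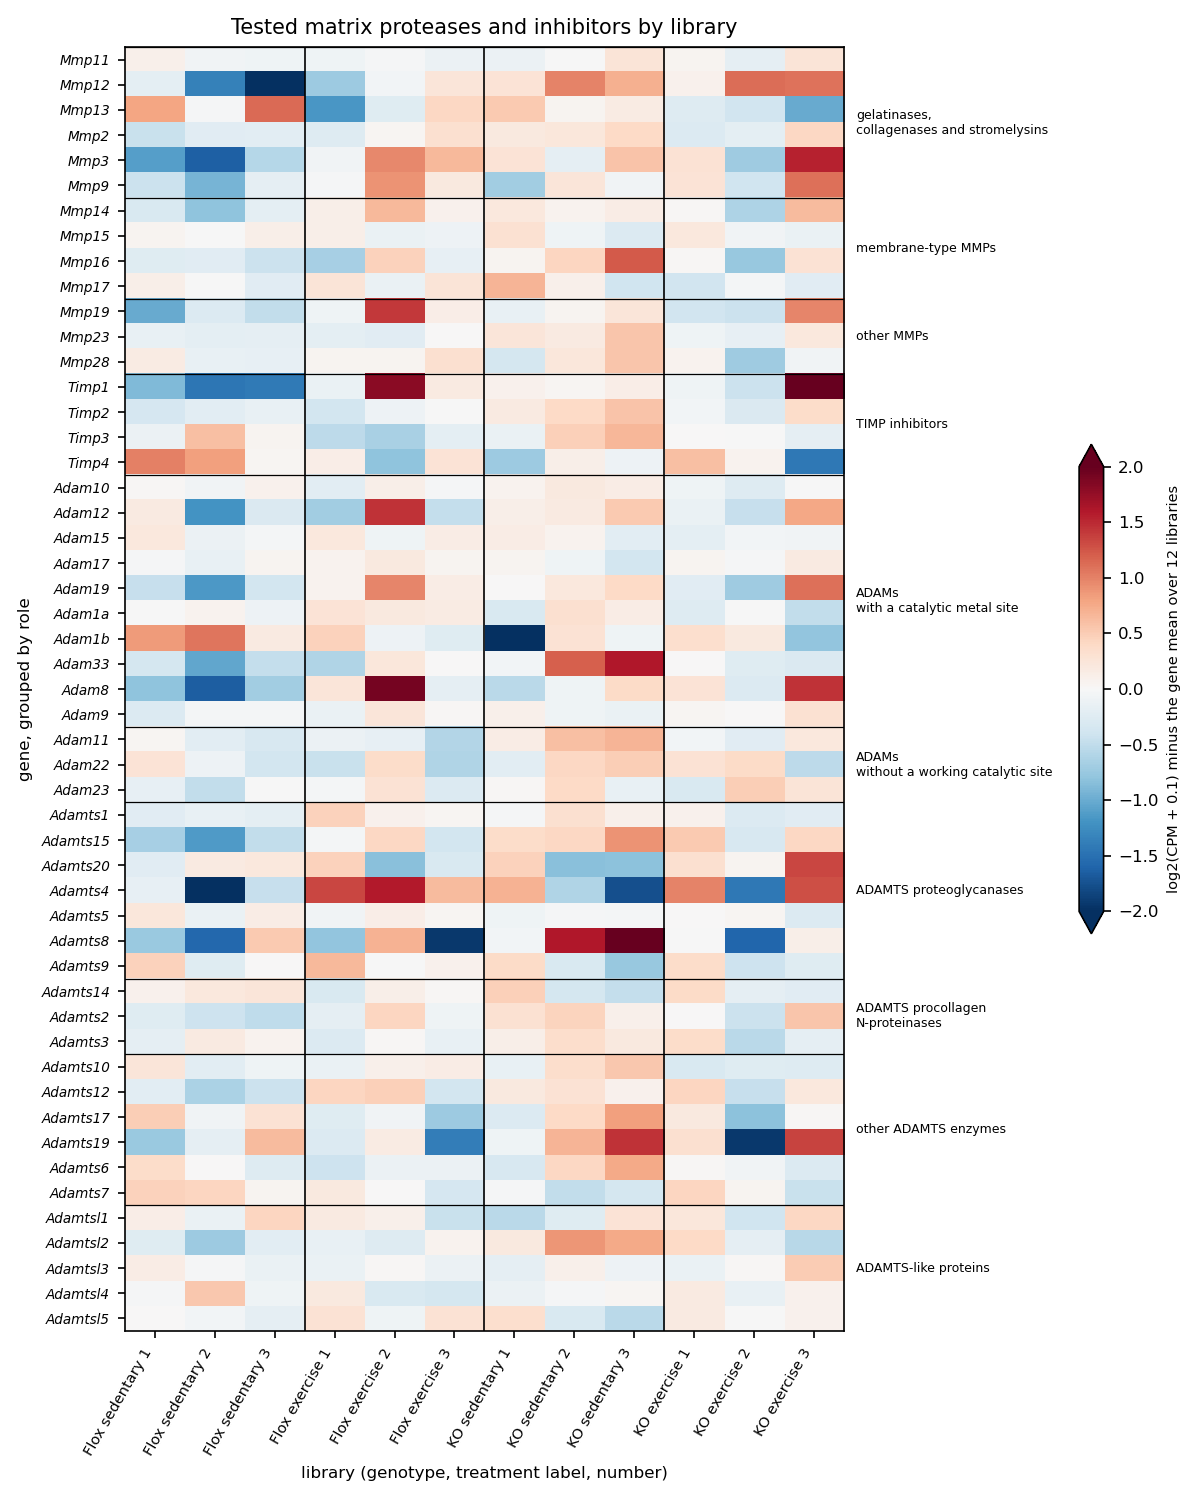
Heat map of the 51 tested members (rows, grouped by role) in the 12 libraries (columns, by group). Colour gives log2(CPM + 0.1) minus the mean of the gene over the 12 libraries, limited to -2 and 2. Red cells gather in libraries 2 and 3 of sedentary KO, and, for Timp1 and several MMPs and ADAMs, in library 2 of exercise Flox and library 3 of exercise KO.

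Genes that work with these proteases were given as lists of activators, other inhibitors, other matrix-processing enzymes and substrates. For KO over Flox in sedentary mice, unadjusted p was under 0.05 for 2 of 15 tested activators and cofactors, 4 of 9 other inhibitors, 5 of 22 other matrix-processing enzymes, 11 of 24 substrates in the matrix and 3 of 23 substrates shed from the cell surface, all higher in KO, and for 1 lower, a matrix-processing enzyme. Of all genes 8.1% were higher and 5.41% lower, so with so few genes nothing is read from the counts of activators and of shed substrates. Substrates in the matrix had a median log2 fold change of 0.66 and shed substrates one of -0.03. Col1a1, Col1a2, Col3a1, Dcn and Lum stand both among the matrix substrates and among the fibroblast markers, so those 2 lists are not separate observations. The 1 gene of the lists past the adjusted threshold was Serpinf1, which encodes PEDF, a serpin that does not inhibit proteases and binds collagen. It stood at 19.0, 20.5 and 17.7 CPM in sedentary Flox and 30.7, 33.9 and 42.4 in sedentary KO, with no overlap, and rose by a log2 fold change of 0.91 ± 0.16 (adjusted p = 0.0487, edgeR). The adjusted p was above 0.05 in 12 of 22 other settings, without each Flox library labelled sedentary among them (0.142, 0.175 and 0.159), and reached 1 with the fibroblast marker mean as a covariate, where the value was 0.58.

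Among the other genes, none of which passed the adjusted threshold, Pcolce, the enhancer of procollagen C-proteinases, stood at 0.69 ± 0.14 (adjusted p = 0.0809, edgeR), the membrane-anchored MMP inhibitor Reck at 0.70 ± 0.17 (adjusted p = 0.115, edgeR) and Tspan5, a tetraspanin that directs Adam10, at 0.88 ± 0.22 (adjusted p = 0.131, edgeR). The matrix substrates Ltbp2 and Bgn stood at 1.39 ± 0.31 and 0.81 ± 0.19 (adjusted p = 0.0994 and 0.104, edgeR), and the shed growth factor Nrg1 at 1.39 ± 0.37 (adjusted p = 0.151, edgeR). For exercise over sedentary Flox, Thbs1, a matrix protein that ADAMTS1 can cut, was 5.49, 4.52 and 6.61 CPM against 11.3, 20.1 and 17.4, a log2 fold change of 1.55 ± 0.40 (adjusted p = 0.487, edgeR). Plaur, the urokinase receptor, was 2.01, 1.16 and 1.77 CPM against 2.57, 3.73 and 2.88, at 0.90 ± 0.27 (adjusted p = 0.523, edgeR). In KO, exercise over sedentary gave Tspan5 at -0.86 ± 0.22 and Nrg1 at -1.37 ± 0.37 (adjusted p = 0.255 and 0.277, edgeR).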

How the data were processed

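Per the labels' protocols, Trizol RNA of frozen hearts was depleted of ribosomal RNA (RiboZero) and made into libraries (NEB). Values deposited by the authors are estimated counts for each gene symbol, with no scaling. The submitters' processing notes name FastQC, Salmon, mm9 and mm10, without version or role. For the annotation release, the strand setting and any summing over transcripts, the entry is: not given in the sources used here. Of 55874 entries, 1696 named vectors, phages or adaptors and were left out (3.87e-05% to 0.186% of a library's counts).

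Rounded estimated counts entered edgeR 4.0.16 under R 4.3.3 (TMM scaling, filterByExpr on the groups, one cell-means model over the 12 libraries, robust glmQLFit, glmQLFTest, Benjamini-Hochberg over 15226 genes, threshold 0.05). CPM use TMM-scaled library sizes. The tests were checked on simulated data. Depth was 17465401 to 20467260 counts per library. No 2 libraries of a group agreed within counting noise (chi-square per degree of freedom 17.1 to 84.7). Members and lists were chosen with earlier results of these data known. Named members were Timp1 to Timp4, Mmp2, Mmp9, Mmp14, Adam10, Adam17, Adamts1, the 5 smallest p per comparison with a mean of at least 1 CPM, and the 5 highest per kb. Of the other lists, genes past the threshold and up to 2 with the smallest p were named. Some items named by these rules are not reported here. Positions and lengths are from GENCODE vM21 (GRCm38). Members sharing exons with another gene are uncertain, since the strand setting is not known. Alternatives were RLE scaling, DESeq2 1.42.0, limma-voom (limma 3.58.1), no filter, at least 1 CPM in 3 libraries, the 2 groups alone, a replicate block, marker means as covariates and leaving out libraries.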

Additional observations from a re-analysis of the deposited data

How the results depend on the processing

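The count of members past the adjusted threshold, 0 in each comparison with edgeR, changed as follows. For KO over Flox in sedentary mice it was 6 of 394 genes passing with DESeq2 (Adam11, Adam33, Adamts15, Adamtsl2, Mmp12 and Timp2), 3 of 120 with no filter on low counts (Adam11, Adam33 and Timp2), 1 of 39 with only the 2 groups in the fit (Adamts15), 1 of 63 without the 2 libraries with the highest Timp1 (Timp1) and 0 to 5 with 1 library left out, the 5 without library 1 of sedentary KO, among 479 genes, and 1 without library 2 of exercise KO, among 35. For exercise over sedentary KO it was 0 to 4 with 1 library left out, the 4 without library 1 of sedentary KO (Adam11, Adam33, Adamts10 and Adamtsl5), among 566 genes against 3 in the reported fit. For KO over Flox averaged over treatments it was 2 with DESeq2 (Adamts15 and Mmp12), among 172 genes against 8. Calls over all genes for KO over Flox in sedentary mice numbered 19 in the reported fit. The cause of these changes was not tested. The 2 libraries with the highest Timp1 were left out because of those values, so the pass of Timp1 there is no support. The direction turned in 5 of 1447 values, all with the fibroblast marker mean as a covariate: for KO over Flox in sedentary mice Mmp2 at -0.016, Mmp3 at -0.21, Mmp16 at -0.28 and Timp1 at -0.62, and for the interaction Mmp2 at 0.028. Of the other values 1408 kept direction and side of the threshold, 22 came to pass it, and 12, all of Serpinf1, no longer did. The labels give groups the same replicate numbers without saying what a number stands for, and deviations of libraries with the same number correlated at -0.319 to 0.306 over 18 pairs, 6 of them above 0.1, so the numbers were not taken as pairs. With a replicate block 0 members passed in each comparison. With 3 libraries a group, members near 1 CPM, such as Mmp12 with an SE of 0.56, had wide errors.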

Other observations

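Adam21, a testis-type ADAM below the count threshold and picked out here after its values were seen, had 19 counts over the 6 Flox libraries, with at least 1 in each, and 1 count over the 6 KO libraries, in 1 library. It was not tested. Adam4, at a like depth, had 28 counts over the Flox and 35 over the KO libraries.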
